A study of Arabidopsis thaliana with 12 samples.

Results

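Transcript levels of the 6 Arabidopsis thaliana genes whose enzymes make proline from glutamate and break it down again were read in inflorescence meristems, the tissue at the shoot tip from which flowers arise. The genes were chosen by locus identifier, and they are P5CS1 (AT2G39800), P5CS2 (AT3G55610), P5CR (AT5G14800), ERD5 (AT3G30775, proline dehydrogenase 1), PRODH2 (AT5G38710) and P5CDH (AT5G62530). All 6 stood among the 25424 genes of the count table and all 6 passed the filter on low counts, which left 21897 tested genes. RNA sequencing gave 12 libraries in 4 groups of 3, a mutant in high and in low air humidity and the wild type col0 in high and in low air humidity. The mutant, called pip2 here, has the genotype label pip2, titles with pip2d, and the name pip2;5 in the design text. PIP2;5 is an aquaporin gene of the plasma membrane. The sources used here give neither the allele nor the humidity values. They also do not say if replicates came from separate plants. A p-value here sets a difference between groups only against the spread of libraries within groups, which may be technical. That spread was estimated over all 4 groups.

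Library totals ran from 17850187 to 28445060 counts, and the correlation between replicate libraries over genes was 0.982 to 0.990 on log2 CPM (CPM is the count scaled to a fixed library total). PIP2;5 (AT3G54820) had 13 to 25 counts per library in pip2 high and 11 to 24 in pip2 low, against 974 to 1509 in col0 high and 1256 to 1441 in col0 low, so the 6 mutant libraries lay below the 6 wild-type libraries. Of 10 meristem markers 9 were in the count table, and CLV3 was not. Among the 9, UFO had 2 to 21 counts per library, while STM reached 21.1 to 33.0 TPM and WUS 17.7 to 35.9 TPM (TPM is scaled for transcript length and depth). AP1 had 69.4 to 89.1 TPM, KNAT1 23.7 to 36.9 and CLV1 18.7 to 31.5. Lower levels were found for CUC2 (4.74 to 7.24 TPM), AIL6 (2.58 to 4.51) and LFY (1.68 to 3.66). Markers of other cell types were present. Photosynthetic ones summed to far more CPM than those of the meristem, and pollen ones also summed to more. The 9 meristem markers summed to 342 to 367 CPM in pip2 high, 359 to 392 in pip2 low, 343 to 379 in col0 high and 326 to 337 in col0 low. In the same order, the 6 photosynthetic markers summed to 17200 to 18100, 14300 to 17100, 17100 to 17800 and 15000 to 16700 CPM. The 4 pollen markers summed to 1300 to 1480 CPM in pip2 high and 732 to 1100 in pip2 low, against 1030 to 1600 in col0 high and 772 to 1090 in col0 low. In the same order, the 6 anther and tapetum markers summed to 340 to 524, 349 to 417, 357 to 391 and 292 to 431 CPM. The 6 vascular markers summed to 285 to 326, 242 to 285, 307 to 359 and 234 to 284 CPM.

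Proline is made in the cytosol and plastid from glutamate. P5C synthetase, encoded by P5CS1 and P5CS2, turns glutamate into pyrroline-5-carboxylate (P5C), and P5C reductase, encoded by P5CR, turns P5C into proline. Breakdown takes place in mitochondria, where proline dehydrogenase, encoded by ERD5 and PRODH2, oxidises proline to P5C and P5C dehydrogenase, encoded by P5CDH, returns it to glutamate. Proline is an osmolyte that plants accumulate under drought and salt. In Arabidopsis seedlings and leaves P5CS1 is known to be induced by water deficit and abscisic acid, and ERD5 to be repressed by water deficit and induced by proline and by the return of water.

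Per length, ERD5 and P5CR were the most abundant transcripts of the cycle and PRODH2 the least. In pip2 high the mean TPM was 278 ± 57.2 for ERD5, 132 ± 11.1 for P5CR, 43.0 ± 3.98 for P5CS2, 37.5 ± 3.71 for P5CDH, 31.7 ± 2.19 for P5CS1 and 4.99 ± 0.613 for PRODH2 (SD, n = 3). The order differed in pip2 low, with 102 ± 3.59 for P5CR, 88.0 ± 5.56 for P5CS1, 85.1 ± 5.33 for ERD5, 56.9 ± 6.60 for P5CS2, 45.3 ± 1.45 for P5CDH and 5.36 ± 1.57 for PRODH2. There the libraries of P5CS1 and ERD5 overlapped. In col0 high the mean TPM was 236 ± 8.35 for ERD5, 128 ± 2.88 for P5CR, 53.2 ± 0.777 for P5CS2, 36.7 ± 2.14 for P5CDH, 29.5 ± 2.27 for P5CS1 and 3.51 ± 1.02 for PRODH2. In col0 low it was 158 ± 4.22 for ERD5, 103 ± 6.21 for P5CR, 55.8 ± 2.35 for P5CS1, 45.6 ± 1.71 for P5CS2, 45.0 ± 4.02 for P5CDH and 3.72 ± 0.946 for PRODH2. P5CS2 and P5CDH overlapped in pip2 high and in col0 low, so their order there is within the spread. Against all genes with a TPM value, ERD5 stood at the 98.1 percentile in pip2 high, 91.7 in pip2 low, 97.7 in col0 high and 95.9 in col0 low, and PRODH2 at the 24.5, 26.2, 19.8 and 21.6 percentile of the same groups. P5CS1 stood at the 73.6 percentile in pip2 high, 92.0 in pip2 low, 71.4 in col0 high and 86.1 in col0 low.

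**Figure D1:**
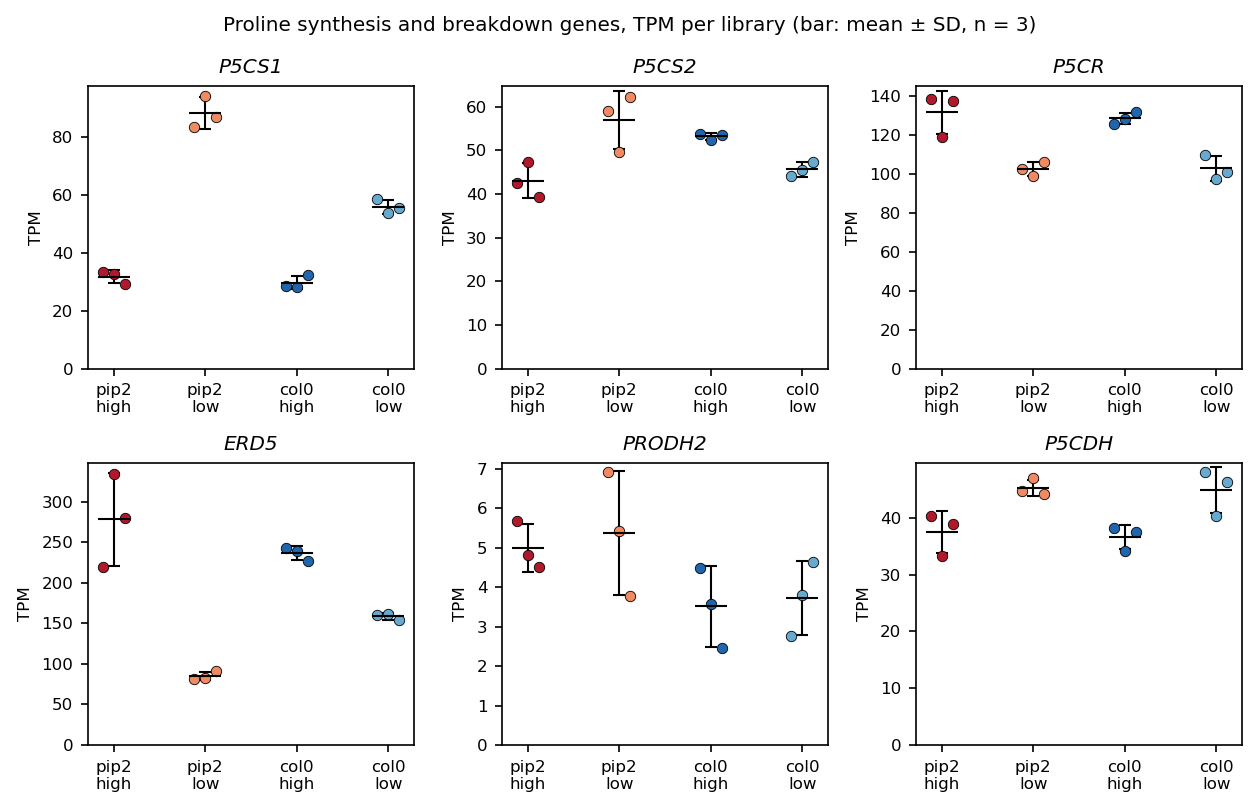
Deposited TPM (vertical axes, each starting at 0) of the 6 genes in each library, by genotype and air humidity; points are libraries, bars the mean ± SD of 3. In P5CS1 the 3 pip2 low libraries are the highest, at 83.2 to 94.1 TPM, and in ERD5 they are the lowest, at 81.3 to 91.2 TPM.

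The stretches just before the annotated starts of P5CS1, ERD5 and P5CDH are shown because ERD5 and P5CDH held the ACTCAT element described next, and P5CS1, with the largest fall in high humidity of the 6 genes in both genotypes, held none of the motifs searched. Members of the group S1 and C bZIP transcription factors are known to act on ERD5 through the element ACTCAT. The motifs searched were ACTCAT itself, the core of the abscisic acid response element, ACGTG, the core of the dehydration-responsive element, CCGAC, and the PHR1 element, GNATATNC. They were searched on both strands of the 250 bases before the start of each gene in RefSeq's annotation of TAIR10.1, and capitals mark the matches. The windows are chr2:16603320-16603569 for P5CS1, chr3:12451557-12451806 for ERD5 and chr5:25103313-25103562 for P5CDH, each on the minus strand and printed 5′ to 3′ on the gene's strand.
P5CS1: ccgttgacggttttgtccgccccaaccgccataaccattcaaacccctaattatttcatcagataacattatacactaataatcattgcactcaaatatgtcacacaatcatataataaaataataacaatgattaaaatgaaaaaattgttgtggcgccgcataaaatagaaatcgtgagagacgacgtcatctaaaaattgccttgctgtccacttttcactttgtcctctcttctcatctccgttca
ERD5: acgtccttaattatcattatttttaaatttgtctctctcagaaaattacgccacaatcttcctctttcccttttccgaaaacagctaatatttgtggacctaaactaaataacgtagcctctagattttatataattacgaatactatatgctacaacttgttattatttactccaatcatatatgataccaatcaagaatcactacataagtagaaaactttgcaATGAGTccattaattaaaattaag
P5CDH: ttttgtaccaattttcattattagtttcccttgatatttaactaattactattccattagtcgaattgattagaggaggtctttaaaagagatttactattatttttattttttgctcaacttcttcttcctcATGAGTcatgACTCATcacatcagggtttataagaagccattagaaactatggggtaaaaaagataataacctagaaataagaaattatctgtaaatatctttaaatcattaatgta
ERD5 held 1 ACTCAT, read on the opposite strand as ATGAGT at bases 24 to 19 before the start, and P5CDH held 2, at bases 117 to 112 and 107 to 102. The other 4 windows held none, and 12.3% of 27443 promoters of this length hold at least 1. P5CS1 had 0 matches to all 4 motifs in its window. An ACGTG was found in P5CR alone (22.9% of promoters), a CCGAC in P5CS2 and P5CR (12%) and a GNATATNC in none of the 6 (5.46%). No match overlapped a match to another motif.

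The first comparison asks which changes go with air humidity in the mutant. In high humidity, relative to low, pip2 held less P5CS1 mRNA and more ERD5 mRNA, the P5CS2 and P5CDH transcripts fell by smaller amounts, and P5CR rose. P5CS1 had 33.3, 32.5 and 29.2 TPM in pip2 high, against 83.2, 94.1 and 86.7 TPM in pip2 low. The lowest library of pip2 low thus stood well above the highest of pip2 high, a 2.72-fold fall (log2 fold change -1.44 ± 0.07 SE, edgeR adjusted p = 3.23e-08), and P5CS1 ranked 16 of 21897 genes by p. ERD5 had 219.7, 334 and 280.3 TPM in pip2 high, against 81.3, 82.9 and 91.2 TPM in pip2 low. Each high-humidity library lay above each low-humidity one, although replicate 2 of pip2 high stood well over replicate 1, and the fold was 3.32 (log2 1.73 ± 0.13, edgeR adjusted p = 5.94e-07). The remaining steps moved less. P5CS2 had 42.4, 47.3 and 39.4 TPM in pip2 high, against 58.9, 49.5 and 62.2 TPM in pip2 low, and fell (log2 -0.38 ± 0.08, edgeR adjusted p = 0.00506). P5CR had 139, 119 and 137 TPM in pip2 high, against 102, 98.7 and 106 TPM in pip2 low, and rose (log2 0.39 ± 0.06, edgeR adjusted p = 0.000238). These groups did not overlap for either gene.

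P5CDH had 40.4, 33.3 and 38.8 TPM in pip2 high, against 44.7, 47.0 and 44.3 TPM in pip2 low, and fell (log2 -0.24 ± 0.08, edgeR adjusted p = 0.0367). Over 22 alternatives its adjusted p ran from 0.0196 to 0.141. The call was lost without pip2 high replicate 2 (0.111) or 3 (0.0587), without pip2 low replicate 2 (0.141) or 3 (0.0736), and with the pip2 libraries fitted alone (0.0748). PRODH2, the lesser proline dehydrogenase gene, had 5.68, 4.80 and 4.50 TPM in pip2 high, against 6.90, 5.41 and 3.77 TPM in pip2 low, which overlap (log2 -0.09, 95% interval -0.63 to 0.45, edgeR adjusted p = 0.836). In all, 2 of the 6 genes rose and 3 fell in pip2, where 24.0% of tested genes passed the test, 12.3% as rises and 11.7% as falls. The median log2 fold change was -0.17 for the 6 and 0.01 for all tested genes. By CPM, 5 of 6 genes had no overlap between the groups, against 38.1% of tested genes. In bulk tissue, fewer cells of a type and less RNA per cell cannot be told apart. Of the markers, 3 of 4 pollen, 3 of 6 photosynthetic and 1 of 9 meristem genes rose with humidity in pip2, and their part in the result was not tested.

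The same question was put to col0, where P5CS1 again fell and ERD5 and P5CR again rose, P5CDH fell, and P5CS2 did not pass the test. P5CS1 had 28.4, 28.1 and 32.2 TPM in col0 high, against 58.3, 53.7 and 55.4 TPM in col0 low, which is 1.92-fold lower in high humidity (log2 -0.94 ± 0.07, edgeR adjusted p = 1.34e-06). ERD5 had 243, 239 and 227 TPM in col0 high, against 159.7, 162 and 154 TPM in col0 low, a fold of 1.48 (log2 0.57 ± 0.12, edgeR adjusted p = 0.00337). Both genes kept a clear gap between the groups. P5CR had 126, 128 and 131 TPM in col0 high, against 109.5, 97.4 and 101 TPM in col0 low (log2 0.31 ± 0.06, edgeR adjusted p = 0.00103). P5CDH had 38.2, 34.2 and 37.6 TPM in col0 high, against 48.1, 40.4 and 46.4 TPM in col0 low (log2 -0.34 ± 0.08, edgeR adjusted p = 0.00490).

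P5CS2 had 53.8, 52.3 and 53.4 TPM in col0 high, against 44.0, 45.4 and 47.4 TPM in col0 low, so each high-humidity library was above each low-humidity one, unlike in pip2. Its log2 fold change was 0.21 ± 0.08 with an edgeR adjusted p of 0.0719, which ran from 0.0127 to 0.227 over 22 alternatives. The gene passed with the col0 libraries fitted alone (0.0127) and without pip2 high replicate 2 (0.0292), a library that enters this comparison only through the shared estimate of the spread. PRODH2 had 4.49, 3.58 and 2.46 TPM in col0 high, against 2.75, 3.79 and 4.64 TPM in col0 low, which overlap (log2 -0.10, 95% interval -0.66 to 0.46). Thus 2 of 6 rose and 2 fell in col0, where 30.2% of tested genes passed the test, 14.3% as rises and 15.8% as falls. The median log2 fold change was 0.05 for the 6, and for all tested genes it lay within 0.01 of 0. Groups did not overlap for 5 of 6 genes, against 44.8% of tested genes. Among the markers, 2 of 4 pollen, 3 of 6 vascular, 2 of 6 photosynthetic and 1 of 9 meristem genes rose in col0 and 1 of 6 anther genes fell, and their part in the result was not tested.

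**Figure D2:**
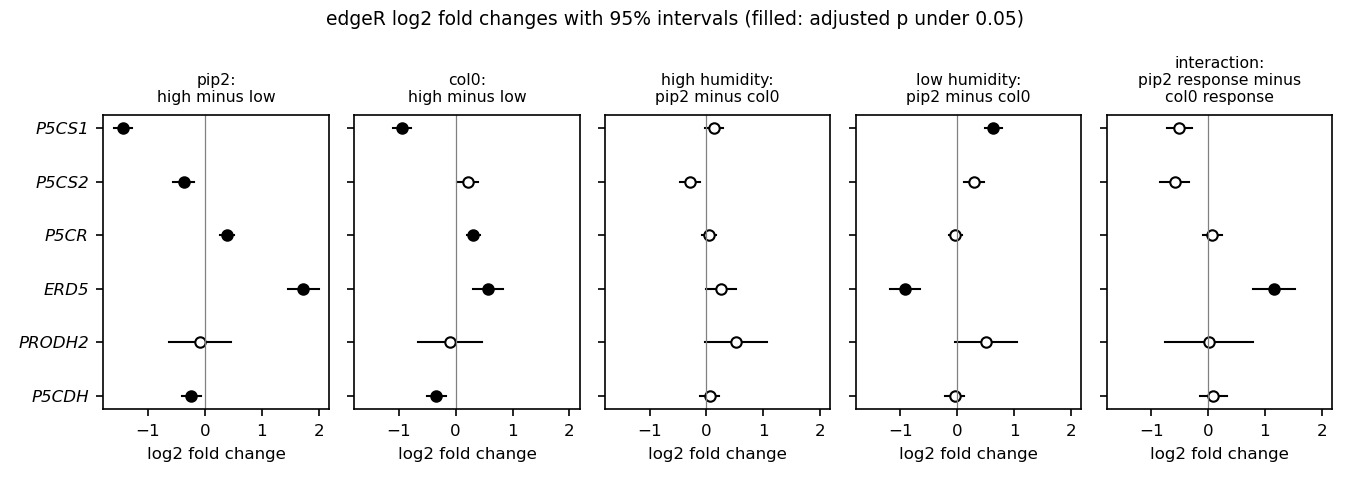
Log2 fold change (horizontal axis) with 95% interval of each gene (rows) in the 5 comparisons of edgeR's quasi-likelihood fit; filled points have an adjusted p under 0.05. P5CS1 lies left of 0 and ERD5 right of 0 in both humidity responses, at -1.44 and 1.73 in pip2 and at -0.94 and 0.57 in col0, and their sides are turned at low humidity in pip2 minus col0 (0.63 and -0.91).

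The genotype comparisons set the pip2 line against col0 at a fixed humidity. In low humidity pip2 had more P5CS1 and less ERD5 mRNA than col0. P5CS1 had 83.2, 94.1 and 86.7 TPM in pip2 low, against 58.3, 53.7 and 55.4 TPM in col0 low, and was 1.55-fold higher (log2 0.63 ± 0.07, edgeR adjusted p = 0.000167). ERD5 had 81.3, 82.9 and 91.2 TPM in pip2 low, against 159.7, 162 and 154 TPM in col0 low, and was 1.88-fold lower (log2 -0.91 ± 0.12, edgeR adjusted p = 0.000782). The groups did not overlap for either gene, and both calls were kept in all 22 alternatives (adjusted p up to 0.00157 for P5CS1 and up to 0.00736 for ERD5). So 1 of the 6 genes was higher and 1 lower, where 2.79% of tested genes passed the test, 0.854% as higher and 1.94% as lower. The count of all genes called was 612, or 974 with a replicate block, and the 2 member calls stood under both.

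P5CS2 also had no overlap in low humidity, at 58.9, 49.5 and 62.2 TPM in pip2 low against 44.0, 45.4 and 47.4 TPM in col0 low, but missed the threshold (log2 0.29 ± 0.08, edgeR adjusted p = 0.0870). That p ran from 0.0264 to 0.299 over 22 alternatives, and the gene passed in DESeq2 (0.0264), without pip2 high replicate 2 (0.0329) and without pip2 low replicate 2 (0.0419). No overlap was found for 3 of 6 genes, against 19.6% of tested genes. For P5CR the 95% interval of the log2 difference was -0.15 to 0.09 and for P5CDH -0.21 to 0.12, so differences beyond these bounds are outside the intervals. PRODH2 was measured less closely, with an interval of -0.04 to 1.06 around 0.51 (edgeR adjusted p = 0.412). None of the marker genes passed in either genotype comparison by edgeR, where 2.79% of tested genes passed at low and 0.466% at high humidity.

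In high humidity 0 of the 6 genes differed between genotypes by edgeR, where 0.466% of tested genes did. DESeq2 also called 0, and 1 gene, P5CS2, had an unadjusted p under 0.05. P5CS1 had 33.3, 32.5 and 29.2 TPM in pip2 high against 28.4, 28.1 and 32.2 TPM in col0 high, which overlap (log2 0.13, 95% interval -0.03 to 0.29). ERD5 had 219.7, 334 and 280.3 TPM in pip2 high against 243, 239 and 227 TPM in col0 high, which overlap too (log2 0.25, 95% interval -0.01 to 0.51). P5CS2, at 42.4, 47.3 and 39.4 TPM in pip2 high against 53.8, 52.3 and 53.4 TPM in col0 high, was the gene of the 6 with no overlap, against 14.0% of tested genes (log2 -0.29, 95% interval -0.47 to -0.11, edgeR adjusted p = 0.228). The intervals of the log2 difference were -0.07 to 0.17 for P5CR, -0.11 to 0.22 for P5CDH and -0.03 to 1.07 for PRODH2.

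The interaction tests whether the humidity response of pip2 differs from that of col0. ERD5 rose more in pip2, by 1.16 ± 0.17 on the log2 scale or 2.24-fold (edgeR adjusted p = 0.0118), and it ranked 21 of 21897 genes by p. The ERD5 call was kept in all 21 alternatives, with an adjusted p of up to 0.0473. By edgeR 1 of 6 genes thus passed as higher and 0 as lower, where 0.352% of tested genes passed, 0.306% as higher and 0.0457% as lower. Beside these counts, 3 of the 6 had an unadjusted p under 0.05, a cut for which no share of all tested genes is given. They were ERD5, P5CS2 and P5CS1, at ranks 21, 85 and 89 of 21897 genes by p. DESeq2 called 1 of the 6 higher and 2 lower, where it called 185 of all genes. The added pair was P5CS1 and P5CS2. P5CS1 had an interaction of -0.51 ± 0.10 (edgeR adjusted p = 0.0597), and its p ran from 0.00126 to 0.173 over 21 alternatives. P5CS2 had -0.59 ± 0.12 (edgeR adjusted p = 0.0573), with a p from 0.000721 to 0.159. Each passed in 6 of the 21 alternatives. For P5CS1 these were DESeq2 (0.00126), upper-quartile scaling (0.0362), a robust estimate of the spread (0.0350), a replicate block (0.0349), and leaving out pip2 high replicate 2 (0.0495) or pip2 low replicate 1 (0.0434). For P5CS2 they were DESeq2 (0.000721), upper-quartile scaling (0.0475), the robust estimate (0.0292), the block (0.0352), and leaving out pip2 high replicate 2 (0.0171) or pip2 low replicate 2 (0.0353). P5CR (0.08 ± 0.08), P5CDH (0.10 ± 0.11) and PRODH2 (0.01 ± 0.36) did not pass in any.

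Set side by side, the transcripts of P5CS1 and ERD5 came closest to each other in pip2 low. P5CS2, which also encodes the first enzyme of synthesis, is left out of this ratio. P5CS1 and P5CS2 together came to 145 TPM in pip2 low, against 85.1 for ERD5. In col0 low they came to 101 TPM, against 158 for ERD5. The ratio of ERD5 to P5CS1 TPM was 6.59, 10.3 and 9.60 in pip2 high, against 0.977, 0.880 and 1.05 in pip2 low. In col0 it was 8.57, 8.49 and 7.06 in high humidity, against 2.74, 3.01 and 2.77 in low humidity. The pip2 low libraries thus held about equal amounts of the 2 transcripts per length, each other library held more ERD5, and the high-humidity libraries of the genotypes overlapped. No test is given for this ratio, because it joins genes chosen with results known. Across the 12 libraries the log2 CPM of P5CS1 and ERD5 correlated at -0.938, as a description of libraries that share 4 groups.

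**Figure D3:**
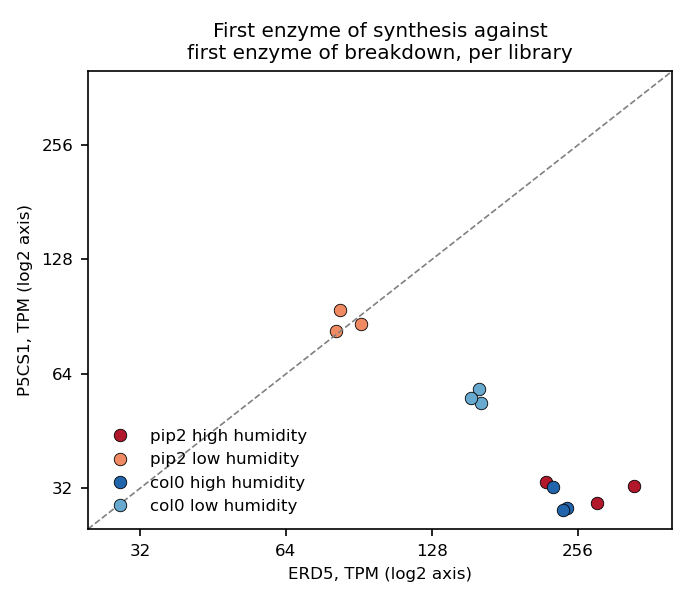
P5CS1 TPM (vertical) against ERD5 TPM (horizontal) in each of 12 libraries, both on log2 axes; the dashed line marks equal TPM. The 3 pip2 low libraries lie on or near the line, with ERD5 to P5CS1 ratios of 0.880 to 1.05, the col0 low libraries at ratios of 2.74 to 3.01, and the high-humidity libraries of both genotypes together at the lower right.

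The makeup of P5C synthetase transcripts moved as well. P5CS1 and P5CS2 together came to 74.7 ± 5.67 TPM in pip2 high and 145 ± 3.61 in pip2 low, and to 82.7 ± 2.64 in col0 high and 101 ± 1.97 in col0 low (SD, n = 3). P5CS1 was 42.5 ± 1.60% of that sum in pip2 high, against 60.7 ± 4.13% in pip2 low, and 35.7 ± 1.66% in col0 high, against 55.0 ± 1.71% in col0 low. The gene pair shares sequence, with a longest identical run of 53 bases in their annotated exons, so reads within such runs may have been split between them. For ERD5 and PRODH2 the longest run was 17 bases, and PRODH2 made up 1.07% to 2.93% of their summed TPM in col0 libraries and 1.42% to 7.83% in pip2 libraries.

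P5CDH lies over a neighbour on the opposite strand, SRO5 (AT5G62520), a gene known to form a natural antisense pair with it. In RefSeq's annotation of TAIR10.1 their exons share 811 bases, which is 31.3% of the exon bases of P5CDH. Whether counting used the strand is not stated, and without strand the reads of this stretch cannot be assigned to either gene. SRO5 had 21 to 44 counts per library in pip2 high and 38 to 53 in pip2 low, against 37 to 54 in col0 high and 21 to 30 in col0 low, and it passed in none of the 5 comparisons by edgeR (lowest adjusted p 0.131). The 2 deposited tables differ on this gene. Its CPM divided by its TPM came to 91.8 bases, which is 5.15% of its annotated exon length, while the same figure for the 6 cycle genes was 70.7% to 99.6%. P5CS1 shares 2.86% of its exon bases and P5CS2 1.15% with an opposite gene, and the other 3 share none.

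Around the cycle, 57 genes in 8 lists were read, of which 56 were tested. The lists were chosen with earlier results of these data known, so their counts are a description and no independent support. The list of bZIP factors and that of other amino acid breakdown genes had the most rises with humidity. Members of the group S1 and C bZIP factors are known to act on ERD5 through ACTCAT, and which of the 9 listed do so was not tested. Of these 9, 6 rose in pip2 and 5 in col0, and none fell (median log2 0.45 in pip2 and 0.18 in col0). Over all tested genes 12.3% rose in pip2 and 14.3% in col0. The bZIP factors that rose included bZIP9 (log2 1.15 ± 0.07 in pip2 and 1.01 ± 0.07 in col0), bZIP63 (1.28 ± 0.12 and 1.20 ± 0.12) and bZIP2 (0.88 ± 0.08 and 0.61 ± 0.08). At low humidity 2 of the 9 were lower in pip2 than in col0, where 1.94% of all tested genes were lower. Of these, bZIP53 had 83.7 ± 5.99 CPM in pip2 low and 107 ± 4.85 in col0 low (log2 -0.35 ± 0.06, edgeR adjusted p = 0.00719). The other, bZIP2, had 92.7 ± 6.27 CPM and 115 ± 6.49 CPM in the same groups (log2 -0.31 ± 0.08, edgeR adjusted p = 0.0459). In the interaction 0 of 9 passed by edgeR and by DESeq2, and 3 had an unadjusted p under 0.05. By edgeR 0.352% of all tested genes passed there, so a count of 0 among 9 says little about the list.

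The list of other amino acid breakdown genes that rise when energy is low also holds ASN1, an asparagine synthetase gene. These 15 genes gave 9 rises and 1 fall in pip2 and 7 rises and 1 fall in col0 (median log2 0.22 and 0.27). Over all tested genes the same 12.3% and 14.3% rose. ASN1 was among the rises in pip2 (0.89 ± 0.30, edgeR adjusted p = 0.0467), though DESeq2 did not call it, and had 0.10 ± 0.30 in col0. By DESeq2 the rises were 7 in pip2 and 9 in col0, so the order of the genotypes depends on the tool. DIN4, a subunit of the branched-chain keto acid dehydrogenase, rose (0.97 ± 0.09 in pip2 and 1.01 ± 0.09 in col0), as did MCCA, a subunit of methylcrotonyl-CoA carboxylase (0.86 ± 0.09 and 0.83 ± 0.09), and TAT7, a tyrosine aminotransferase (0.25 ± 0.08 and 0.36 ± 0.08). BCAT2, a branched-chain aminotransferase, rose in pip2 (0.72 ± 0.15) and had 0.42 ± 0.16 in col0 (edgeR adjusted p = 0.0551), where DESeq2 called it. MGL, a methionine lyase gene, was the member that fell in both. In this list 0 of 15 differed between genotypes at either humidity or in the interaction, by edgeR and by DESeq2. By edgeR 0.466% of all tested genes passed at high humidity, 2.79% at low humidity and 0.352% in the interaction. At such shares a count of 0 among 15 genes says little about the list. The unadjusted p was under 0.05 for 2 of the 15 genes at high humidity, 0 at low humidity and 0 in the interaction.

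Of 8 amino acid transporter genes 3 fell in pip2 and 2 in col0, and none rose, where 11.7% of all tested genes fell in pip2 and 15.8% in col0. PROT3, a proline transporter, had 15.7 ± 1.02 CPM in pip2 high and 31.8 ± 4.08 in pip2 low, and 18.8 ± 2.29 in col0 high and 31.3 ± 4.08 in col0 low (log2 -1.02 ± 0.12 and -0.73 ± 0.12, edgeR adjusted p = 5.22e-05 and 0.000502). The amino acid permease gene AAP1 fell in both genotypes and AAP6 in pip2, while PROT1, at 37.4 to 48.9 TPM over all libraries, and PROT2 did not pass. Of 13 genes of glutamate supply and use, 1 rose and 1 fell in pip2, where 24.0% of all tested genes passed in either direction, and 2 rose and 5 fell in col0, where 30.2% did. DESeq2 called 3 lower in pip2, GLN1;3, GLU2 and GLT1, so the number of falls there depends on the tool. The cytosolic glutamine synthetase gene GLN1;2 rose (0.36 ± 0.07 in pip2 and 0.37 ± 0.07 in col0) and GLN1;3 fell (-0.38 ± 0.05 and -0.27 ± 0.05), and GLT1 fell in col0 (-0.26 ± 0.07) and had -0.18 ± 0.07 in pip2 (edgeR adjusted p = 0.0869). GLU1, which encodes a glutamate synthase, was the member that was lower in pip2 than in col0 at low humidity (log2 -0.33 ± 0.07, edgeR adjusted p = 0.0289). Over all tested genes 1.94% were lower there.

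In the ornithine and arginine route, OAT, which offers another source of P5C, rose (0.22 ± 0.07 in pip2 and 0.22 ± 0.07 in col0) and the arginase gene ARGAH2 fell (-0.66 ± 0.17 and -0.47 ± 0.17), though DESeq2 did not call it in col0. Among 5 tested regulators linked to P5CS1 the one call was ABI5, a factor of abscisic acid signalling, which fell in both genotypes (-0.25 ± 0.07 and -0.27 ± 0.07). Of 2 prolyl-tRNA synthetase genes the organellar one (AT5G52520) fell in col0 (-0.20 ± 0.07). Over the 57 genes together, of which 56 were tested, 17 rose and 7 fell in pip2 (24.0% of all tested genes passed there) and 15 rose and 11 fell in col0 (30.2%). By edgeR 0 passed between genotypes at high humidity (0.466% of all tested genes), 3 at low humidity (2.79%) and 0 in the interaction (0.352%). At an unadjusted p under 0.05 these last 3 comparisons had 5, 9 and 6 genes. For these and the earlier counts at that cut, no share of all tested genes is given. DESeq2 called AAP6 and GLN1;1 lower and bZIP9 higher in pip2 at high humidity, and at low humidity added GAD1 and bZIP11 as lower and ABI1 as higher.

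**Figure D4:**
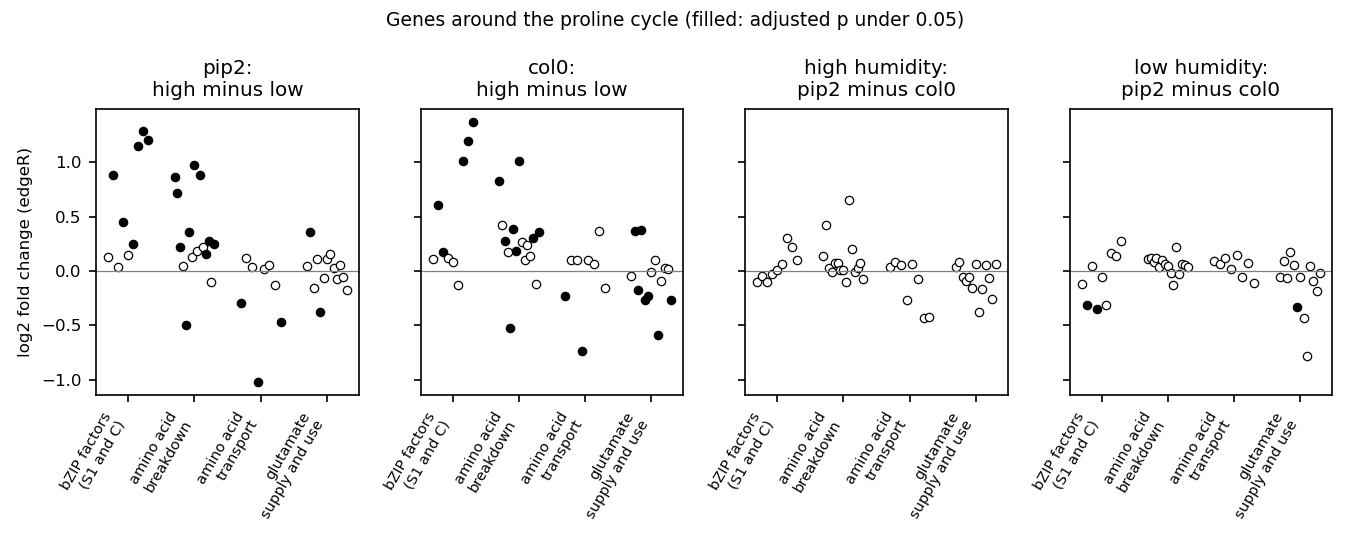
Log2 fold change (vertical axis) of each tested gene of 4 lists around the proline cycle in 4 comparisons; each point is a gene and filled points have an adjusted p under 0.05 in edgeR. With humidity 6 of 9 bZIP factors rise in pip2 and 5 of 9 in col0, and between genotypes few points are filled.

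By the correlation of log2 CPM over the 12 libraries, among 20080 genes averaging 1 CPM or more, the patterns most like P5CS1 were those of AT4G29700 (r = 0.984), RAB18 (AT5G66400, r = 0.984), a dehydrin gene that answers to abscisic acid, and TRM12 (AT1G63670, r = 0.983). The most opposite were ALN (AT4G04955, r = -0.988), the allantoinase gene of purine breakdown, ARAB-1 (AT1G28670, r = -0.986) and EXL2 (AT5G64260, r = -0.985).

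ERD5 was most like AT5G44020 (r = 0.988), EXGT-A3 (AT2G01850, r = 0.986), a xyloglucan-modifying enzyme of the cell wall, and BGAL1 (AT3G13750, r = 0.985), a beta-galactosidase. The most opposite to ERD5 were AT1G47900, FKGP (AT1G01220) and AT4G08170 (r = -0.960, -0.960 and -0.959). P5CDH was closest to AT5G08690 (r = 0.988), AT2G20420 (0.986) and the tubulin gene TUA4 (0.976), and P5CR to VEL1 (0.975), RFI2 (0.971) and FDM2 (0.971). The patterns of P5CS2 and PRODH2 had looser matches, at r = 0.870 to 0.875 for P5CS2 (AT1G42470, AT1G53100 and SADHU2-1) and 0.862 to 0.879 for PRODH2 (AT2G33690, LCR4 and AT1G34418). These genes were chosen on the same 12 libraries, so no test is given for them. The values are correlations over libraries that share 4 groups, and they join differences between groups with scatter within groups. For PRODH2 the groups overlapped at each humidity and in each genotype.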

How the data were processed

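RNA was sequenced from 12 libraries. Reads were handled with Trimmomatic 0.39, HISAT2 2.2.1 and featureCounts 2.0.6 on the build TAIR10, per the submitters' processing notes. One deposited file gives raw read counts, whole numbers without normalization. The other gives TPM computed by the authors, with no value for 2537 genes and no stated method. Each listed gene had at least 1 count in col0 low replicate 1 (0 genes at 0 there), while the other libraries had 884 to 1278 genes at 0. The reason was not tested.

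Groups came from the titles. Genes were filtered with filterByExpr (minimum count 10, minimum total 15), scaled by TMM (factors 0.972 to 1.04) and tested with edgeR 4.0.16 (quasi-likelihood, R 4.3.3), all 12 libraries in 1 fit without a block. Tests were two-sided, with Benjamini-Hochberg adjustment over 21897 genes and a threshold of 0.05. The SE was obtained from the size of the log2 fold change divided by the root of F, and intervals are 95%. The fit was also run on simulated data, and the outcome of that run is not given here. Positive values mean higher in high humidity or in pip2. Levels were compared between genes in TPM only. Chi-square per degree of freedom between replicates was 4.85 to 11.4, so none repeated another.

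Alternatives were DESeq2 1.42.0, 2 other scalings, no filter, only the groups compared, a replicate block, limma 3.58.1 on log2 TPM (pseudocounts 1 and 0.1), each library left out, and, added after the values were seen, robust estimation of the spread. Same-numbered libraries deviated together in the col0 humidity response (r of 0.174 to 0.373 across genes) and between genotypes at low humidity (0.158 to 0.205). They did not throughout in pip2 (-0.03 to 0.207) or between genotypes at high humidity (-0.00923 to 0.235). No main test paired same-numbered libraries, and the replicate block entered only as an alternative.

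All 6 genes are named in each comparison, and of each list at most 3 called genes, taken by adjusted p, with the 3 genes most alike. Genes named for their DESeq2 calls, and ASN1, MGL, PROT1 and PROT2, were added after their values were seen. The members and lists were chosen with earlier results of these data known. Names and sequences came from RefSeq's TAIR10.1, which 25326 genes matched. Protein sequences were not used here.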

Additional observations from a re-analysis of the deposited data

Results flagged for a closer look

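The humidity response of ERD5 differed between the genotypes by the test of the difference itself. The log2 response was 1.73 ± 0.13 in pip2 and 0.57 ± 0.12 in col0, and the difference was 1.16 (edgeR adjusted p = 0.0118). All 3 pip2 high libraries lay above all 3 pip2 low ones, and likewise in col0, so the responses had the same direction and unequal size. With each of the 12 libraries left out in turn the difference ran from 0.97, without pip2 high replicate 2, up to 1.32, without pip2 high replicate 1, and it passed each time.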

How the results depend on the processing

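Over all alternatives, 616 recomputed values of single genes kept direction and side of the threshold, 17 newly passed, 5 no longer passed (all P5CDH in pip2, given above) and 16 changed sign, none of them called. Log2 values without 1 library each ran, for PRODH2, -0.28 to 0.11 in pip2, -0.35 to 0.12 in col0 and -0.21 to 0.26 in the interaction. They ran, for P5CDH, -0.0071 to 0.12 at high humidity and -0.099 to 0.0044 at low humidity, and for P5CR -0.058 to 0.0022 at low humidity. The interaction of PRODH2 was -0.011 with upper-quartile scaling, and P5CDH at low humidity was 0.0143 and 0.0146 in the TPM fits with pseudocounts 1 and 0.1 (0.0143 also above 1 TPM). The cause was not tested.

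Counts of all genes called moved by over 1.5 times in 3 comparisons. At high humidity 102 genes became 239 in DESeq2, 276 with a replicate block and 67 to 127 without a library. At low humidity 612 became 974 with the replicate block and 362 to 713 without a library. In the interaction 77 became 185 in DESeq2, 163 with the replicate block, 46, 45 and 48 in the TPM fits with pseudocounts 1 and 0.1 and above 1 TPM, and 23 to 64 without a library. Of the 6 genes, 1 higher at low humidity became 2 in DESeq2 and 1 to 2 without a library. None lower in the interaction became 2 in DESeq2, with upper-quartile scaling, with robust estimation and with the replicate block, and 0 to 2 without a library. The replicate block changed no other member call. The interaction cannot be fitted with only the groups of a pair. PRODH2, at 93 to 225 counts per library, has the widest intervals of the 6.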
